A study of Mus musculus with 30 samples.

Results

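The 4 receptor genes of the ErbB family (Egfr, Erbb2, Erbb3 and Erbb4), the ligand gene Nrg1 and the inhibitor gene Errfi1 were followed in aorta and kidney of mice with a knockout of EGFR in vascular smooth muscle cells. The genes were picked by symbol, and all 6 were found among the 41128 genes counted in each tissue. RNA was sequenced from 14 aortae (3 WT-SFD, 4 WT-HFD, 3 KO-SFD and 4 KO-HFD mice) and 16 kidneys (4 mice per group). KO mice carried Egfr flox/flox and a tamoxifen-inducible Cre recombinase (CreERT2) driven by the smooth muscle promoter Smmhc (Myh11). WT mice had this Cre as well but no loxP sites, and both genotypes received tamoxifen, so that all groups share Cre and tamoxifen and the genotypes differ in the floxed allele. All mice were males of the strain C57Bl6J by their labels. Feeding with high-fat diet (HFD) or standard-fat diet (SFD) began 7 days after tamoxifen, at 6 weeks of age, and lasted 18 weeks. The tissue was sequenced with all its cell types, so that Egfr was counted in recombined smooth muscle cells together with all cells in which Cre is not active.

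ErbB receptors are tyrosine kinases of the cell surface that signal as pairs. EGFR binds EGF-type ligands such as EGF, TGFA, amphiregulin and HB-EGF. ERBB2 has no ligand of its own and is the preferred partner of the others, and ERBB3 has a weak kinase and binds neuregulins. ERBB4 binds neuregulins and has an active kinase. Neuregulin 1, the product of Nrg1, is known for its role in Schwann cells and the heart. Errfi1 encodes the cytosolic protein MIG6, which is induced downstream of growth factor and stress signals and blocks the kinase domains of EGFR and ERBB2. In the vessel wall EGFR is activated by vasoactive peptides through shed ligands, and in the kidney the family takes part in tubular growth and repair and in magnesium transport.

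The question of the knockout comparison was what EGFR in vascular smooth muscle does in mice on either diet. Values are FPM, the fragments counted for a gene in a library scaled by TMM factors to a common size of 1000000 fragments in the genes that passed the filter on low counts. In each group they are given in the order of the mouse numbers. Differences between groups are log2 fold changes, with positive values for more RNA in KO or on HFD. A gene was called higher or lower at an adjusted p under 0.05 (quasi-likelihood test of edgeR, adjusted over all genes tested in the tissue). Library totals were 6403699 to 13052870 counts in the aorta (median 8998366) and 16354880 to 28331314 in the kidney (median 19544128). The filter on low counts left 14796 genes of the aorta and 15034 of the kidney. Nrg1 did not pass it in the aorta, so that 5 of the 6 genes were tested there and all 6 in the kidney. Genes on chromosomes 9, X, Y and MT had no counts in any library, and on chromosome 8 no gene that starts beyond 97565603 had any. None of the 6 genes lies there, and Nrg1 starts before that point of chromosome 8. Each library came from a different mouse within its tissue.

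On GRCm38 (GENCODE vM21) all 6 genes are protein coding, and counts covered whole genes. Egfr (ENSMUSG00000020122) lies on chromosome 11, 16752203 to 16918158, plus strand. Erbb2 (ENSMUSG00000062312) lies on chromosome 11, 98412470 to 98437716, plus strand. Erbb3 (ENSMUSG00000018166) lies on chromosome 10, 128567523 to 128589652, minus strand. Erbb4 (ENSMUSG00000062209) lies on chromosome 1, 68032186 to 69108059, minus strand. Nrg1 (ENSMUSG00000062991) lies on chromosome 8, 31814551 to 32884029, minus strand. Errfi1 (ENSMUSG00000028967) lies on chromosome 4, 150853919 to 150868892, plus strand.

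The aortae were not of uniform make-up, and the labelled tissue was checked against markers first. Of 8 smooth muscle markers 7 were detected at high level in all aortae, with Acta2 (smooth muscle actin) the most abundant at 4235 to 8745 FPM, and Tagln, on chromosome 9, was listed at 0. Their sum was 10943, 13531 and 16825 FPM in WT-SFD, 11741, 17255 and 18032 FPM in KO-SFD and 16223 to 19579 FPM on HFD. The sum of 8 adipocyte markers was 4140, 3608 and 199 FPM in the mice WT-SFD-1309, WT-SFD-1310 and WT-SFD-1445. In KO-SFD it was 2827 FPM in mouse KO-SFD-1319, 879 FPM in mouse KO-SFD-1452 and 186 FPM in mouse KO-SFD-1507. The HFD aortae had 127 to 320 FPM. None of the adipocyte markers was at 0, and Lpl (lipoprotein lipase), the most abundant, ran from 42.7 to 1512 FPM. Hence 4 of the 6 SFD aortae carried more adipocyte RNA than any HFD aorta. Each diet comparison in the aorta below is therefore also given without these 4 aortae where it changes a call, an alternative chosen after seeing the data.

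Levels of different genes can be compared per length only, and FPM were divided by the exon length of each gene in kb. In the aorta Errfi1 had the highest level, 10.2 ± 3.17 FPM per kb (SD, n = 14). Egfr followed with 3.80 ± 1.09 FPM per kb and Erbb2 with 3.65 ± 0.484 FPM per kb (SD, n = 14). Egfr was above Erbb2 in 8 of the 14 aortae, so that the order of these neighbours was not fixed. Erbb4 had 1.94 ± 0.218, Erbb3 0.380 ± 0.310 and Nrg1 0.033 ± 0.033 FPM per kb (SD, n = 14), in this order in all 14 aortae. The neuregulin receptors and their ligand were thus the low end of the family in the aorta.

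The kidney showed another order. Errfi1 was highest again, with 115.8 ± 46.8 FPM per kb (SD, n = 16). Erbb3 and Erbb2 came next with 21.7 ± 2.84 and 21.5 ± 1.78 FPM per kb (SD, n = 16), and Erbb2 was above Erbb3 in 7 of 16 kidneys. Egfr had 4.26 ± 0.635 FPM per kb (SD, n = 16), below both in all 16 kidneys. Erbb4 with 1.24 ± 0.377 and Nrg1 with 0.521 ± 0.231 FPM per kb (SD, n = 16) were lowest, and Erbb4 was the higher in 15 of 16 kidneys. With the length of the longest transcript in place of all exons, Egfr was above Erbb2 in 10 aortae, Erbb2 above Erbb3 in 9 kidneys and Erbb4 above Nrg1 in 11 kidneys. Aortae and kidneys were sequenced at different sites and were normalised apart, so that no ratio between the tissues was taken.

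**Figure D1:**
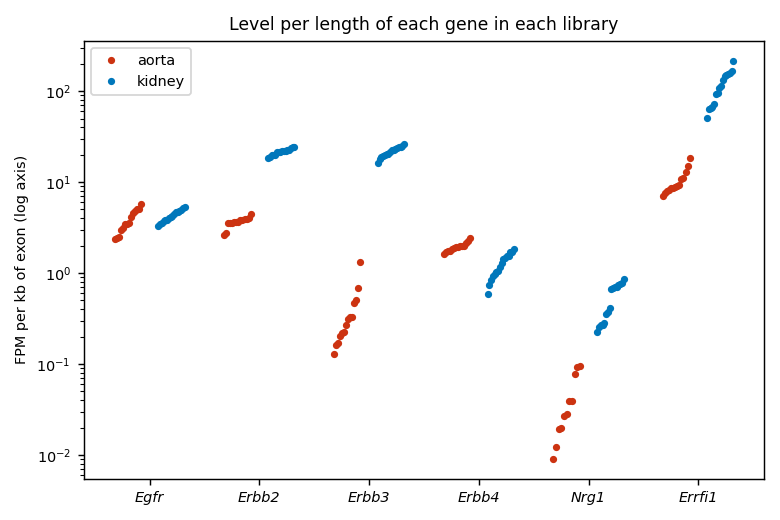
Level of the 6 genes in FPM per kb of exon (log axis) in each of 14 aortae and 16 kidneys, 1 point per mouse. The 3 aortae with 0 Nrg1 counts are not drawn on the log axis. Errfi1 was the highest of the 6 genes in every library, and Erbb3 was next to lowest in the aorta and level with Erbb2 in the kidney.

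Egfr, the targeted gene, was lower in KO aortae on both diets. The WT-SFD aortae had 46.7, 39.5 and 54.3 FPM and the KO-SFD aortae 26.8, 35.5 and 28.0 FPM. The WT-HFD aortae had 65.1, 57.0, 51.2 and 57.0 FPM and the KO-HFD aortae 27.5, 40.6, 39.7 and 33.4 FPM. No KO value reached a WT value of the same diet. Among all genes tested, KO lay wholly below WT for 4.37% on SFD and for 2.03% on HFD, and on both diets for 0.21%. The KO mean was 64.3% of WT on SFD and 61.3% on HFD, so that the larger share of Egfr RNA was still present. Which part of Egfr is floxed was not given in the sources used here, and RNA that lacks only that part would still be counted. Fewer cells that express a gene and less RNA per cell cannot be told apart in whole tissue.

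The mean of the genotype differences on both diets was -0.67 on the log2 scale (SE 0.109, edgeR adjusted p = 0.0132), and Egfr was the 1 of 5 genes called, against 0.196% of all genes tested. Within a diet it was -0.64 on SFD (SE 0.166, edgeR adjusted p = 0.531) and -0.70 on HFD (SE 0.142, edgeR adjusted p = 0.130), where 0.0811% of all genes were called in each comparison. Egfr was not called within a single diet by edgeR, and 2 genes on SFD (Egfr and Erbb3) and 1 on HFD (Egfr) had an unadjusted p under 0.05, as had 6.54% and 5.35% of all genes. DESeq2 called 0 of the 5 on SFD, beside 0.257% of all genes, and 1 on HFD, again Egfr, beside 0.27%. An exact permutation test that exchanged genotypes within each diet gave a two-sided p of 0.00143, the smallest it can give, for a difference of -0.67 in log2 values, reached by 2 of 1400 arrangements. Of 7 smooth muscle markers tested by genotype 0 were called, all 7 were above 0 in the mean of both diets, and their median was 0.09. All 8 adipocyte markers lay below 0 in KO too, with a median of -0.93, but 0 were called and 0 had an unadjusted p under 0.05. Of the leucocyte markers all 6 tested were above 0 in KO, with 3 at an unadjusted p under 0.05, 0 called and a median of 0.58. They summed to 99.9, 93.8 and 102 FPM in WT-SFD, 214, 150 and 148 FPM in KO-SFD, 92.3 to 164 FPM in WT-HFD and 82.3 to 210 FPM in KO-HFD aortae, with Lyz2 the most abundant. Cd3e was listed at 0 but lies in a region without counts for any gene, so that its level is not known. Other markers lay below 0 in KO as Egfr did, none of them called. These were 8 of 10 Schwann cell markers (3 at an unadjusted p under 0.05, median -0.88), 3 of 4 sympathetic neuron markers (2 at an unadjusted p under 0.05, median -1.20), all 8 brown adipocyte markers (median -0.65) and all 4 cardiac muscle markers (median -0.77), with sums in each mouse given below with Erbb3. Of the endothelial markers 5 of 6 were below 0, with 2 at an unadjusted p under 0.05 and a median of -0.19, and they summed to 728 to 1018 FPM with Pecam1 the most abundant. Cdh5 and Robo4 were listed at 0 but also lie in the regions without counts. Of all genes 7.17% had an unadjusted p under 0.05 in this comparison. With the Schwann cell score as a covariate the Egfr value was -0.69 (SE 0.118, edgeR adjusted p = 0.0245). A marker score used as a covariate does not tell fewer cells from less RNA per cell. Of 8 fibroblast markers 5 lay above and 3 below 0 by genotype in the mean of both diets, with 0 called. Their median was 0.04, with 1 at an unadjusted p under 0.05. On SFD all 8 lay above 0 in KO, with a median of 0.13. The part of fibroblasts, leucocytes, neurons, cardiac muscle, endothelium and the other cell types in the Egfr difference was not tested beyond the values given. With the adipocyte score as a covariate the Egfr value was -0.69 (edgeR adjusted p = 0.003), and without the 4 adipocyte-rich aortae it was -0.83 (edgeR adjusted p = 0.040). With mouse KO-SFD-1507 left out, the difference was -0.62 and missed the call (edgeR adjusted p = 0.0916). Scaled to library totals without TMM factors it was -0.49 (edgeR adjusted p = 0.201), on a scale on which the median of all genes was 0.17.

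**Figure D2:**
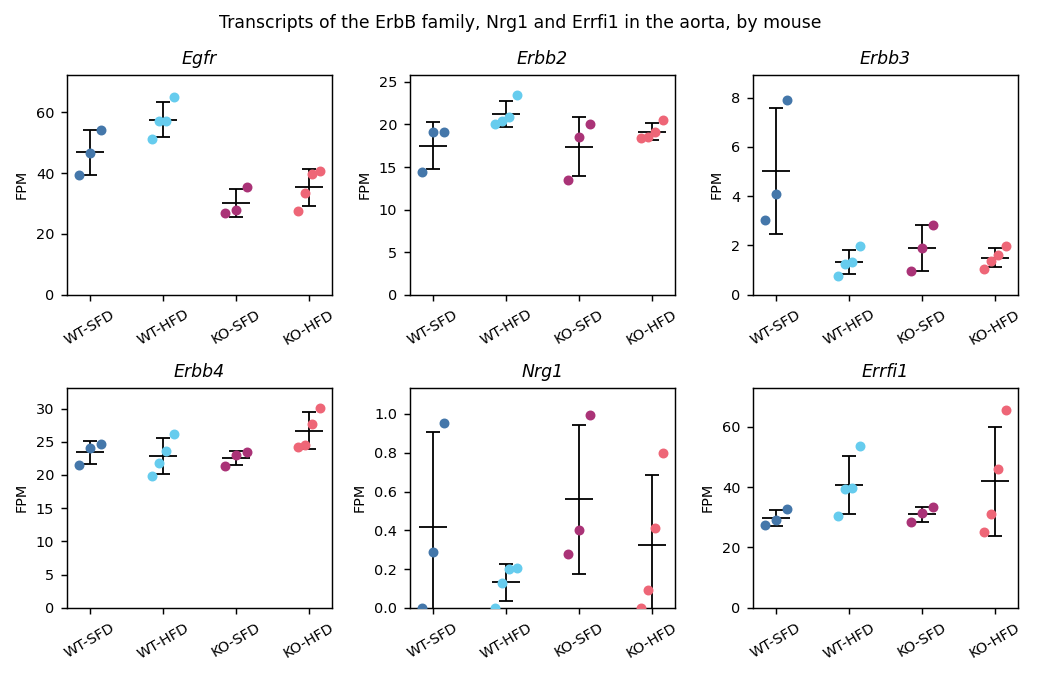
FPM of the 6 genes in 14 aortae by group, 1 point per mouse, with a long line at the group mean and error bars of 1 SD. The KO points of Egfr lie below the WT points of the same diet, and the Erbb3 points of WT-SFD lie above those of the other groups.

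Erbb2, the partner receptor of EGFR, was at 19.1, 14.4 and 19.1 FPM in WT-SFD and at 20.1, 13.5 and 18.6 FPM in KO-SFD aortae. On HFD the WT aortae were at 20.1, 20.9, 23.5 and 20.5 FPM and the KO aortae at 20.5, 19.1, 18.5 and 18.5 FPM. The genotypes overlapped on both diets, and their mean difference was -0.08 (SE 0.104, edgeR adjusted p = 0.891), with a value of 0.11 without TMM factors. In WT every HFD value lay above every SFD value, as for 4.43% of all genes, and the difference of 0.28 (SE 0.147) was not called (edgeR adjusted p = 0.352). With each library left out in turn this difference ran from 0.16 to 0.35. Erbb4, the kinase-active neuregulin receptor, varied least of the 6 genes over the aortae relative to its mean. It had 24.7, 24.0 and 21.5 FPM in WT-SFD, 26.2, 23.6, 21.8 and 19.8 FPM in WT-HFD and 21.3, 23.0 and 23.4 FPM in KO-SFD aortae. In KO-HFD it had 27.6, 30.1, 24.6 and 24.2 FPM, all above KO-SFD, as for 3.45% of all genes. That difference was 0.24 (SE 0.123, edgeR adjusted p = 0.654).

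Erbb3, which encodes the neuregulin receptor with the weak kinase, was higher in WT-SFD than in the other aortae. The WT-SFD aortae had 7.92, 4.10 and 3.03 FPM. In WT-HFD it had 1.22, 1.31, 1.98 and 0.77 FPM, in KO-SFD 2.81, 0.98 and 1.90 FPM and in KO-HFD 1.96, 1.03, 1.60 and 1.37 FPM. WT-SFD lay above WT-HFD and above KO-SFD without overlap, which 4.53% and 4.37% of all genes did, and mouse WT-SFD-1309 had the most. The HFD difference in WT was -1.89 (SE 0.400, edgeR adjusted p = 0.0674) and in KO -0.36 (SE 0.444, edgeR adjusted p = 0.866). With each library left out in turn the value in KO ran from -0.63 to -0.03. The KO difference on SFD was -1.39 (SE 0.421, edgeR adjusted p = 0.644) and on HFD 0.15 (SE 0.428, edgeR adjusted p = 0.999). The diet effect differed between the genotypes by 1.53 (SE 0.603, edgeR adjusted p = 0.998), with no call. In the interaction 0 of the 5 genes were called by edgeR and 0 by DESeq2, and 1 (Erbb3) had an unadjusted p under 0.05, as had 4.37% of all genes. For HFD in WT edgeR called 0 of 14796 genes tested, with 17% at an unadjusted p under 0.05, and DESeq2 called 1 of the 5 genes, Erbb3, at -1.90 (DESeq2 adjusted p = 0.0067), beside 4.5% of all genes it tested. Erbb3 was also called in edgeR without TMM factors (-1.77, edgeR adjusted p = 0.0334), without the filter on low counts (-1.85, edgeR adjusted p = 0.0324) and without mouse WT-SFD-1445 (-2.13, edgeR adjusted p = 0.0027), KO-SFD-1319 (edgeR adjusted p = 0.0250) or KO-SFD-1507 (edgeR adjusted p = 0.0335). In these 5 fits 312 of 14796, 347 of 26846, 1907 of 15329, 630 of 15226 and 438 of 15291 genes were called, in the same order. Over all 14 omissions of 1 library the HFD difference in WT ran from -2.15 to -1.42, with edgeR adjusted p values up to 0.341. The KO difference on SFD ran from -1.72 to -0.92, with edgeR adjusted p values up to 0.971.

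Markers of Schwann cells, which ensheath nerves and use ERBB3 to sense neuregulin 1, moved with Erbb3 in part. The sum of 12 Schwann cell markers was 182, 50.2 and 30.0 FPM in WT-SFD, in the same order of mice as Erbb3. It was 66.7, 29.0 and 27.3 FPM in KO-SFD, 30.0, 45.9, 41.6 and 26.7 FPM in WT-HFD and 23.1, 26.9, 30.2 and 27.4 FPM in KO-HFD aortae. None of the 12 was at 0 in all aortae, and the most abundant, Mbp (myelin basic protein), ran from 2.45 to 55.8 FPM. Of 10 tested for HFD in WT, 8 were below 0, 4 were lower at an unadjusted p under 0.05 and 0 were called by edgeR, with a median of -0.82. With the Schwann cell score as a covariate the HFD difference of Erbb3 in WT was -1.40 (edgeR adjusted p = 0.279), and with the adipocyte score -1.39 (edgeR adjusted p = 0.651). Without the 4 adipocyte-rich aortae, which leaves 1 SFD mouse per genotype whose spread is assumed to be that of the other groups, it was -1.17 (SE 0.554, edgeR adjusted p = 0.833). Other markers were high in some of the same mice. The sum of 8 brown adipocyte markers was 1346, 812 and 36.7 FPM in WT-SFD, 700, 324 and 34.4 FPM in KO-SFD and 40.0 to 90.3 FPM on HFD, with Ucp1 the most abundant (0.544 to 580 FPM). For HFD in WT all 8 were below 0, 7 at an unadjusted p under 0.05, with a median of -3.74. The sum of 6 cardiac muscle markers was 7.51, 388 and 11.6 FPM in WT-SFD, 12.7, 63.8 and 11.3 FPM in KO-SFD and 8.95 to 22.7 FPM on HFD, with Myh6 the most abundant (0.402 to 248 FPM). It was thus high in mouse WT-SFD-1310 and not in mouse WT-SFD-1309, which had the most Erbb3. All 4 cardiac markers tested for HFD in WT were below 0 at an unadjusted p under 0.05, with a median of -3.29. The sum of 6 sympathetic neuron markers was 120 FPM in mouse WT-SFD-1309 and 15.2 to 40.5 FPM in the other aortae, with Uchl1 the most abundant, and the 4 tested for HFD in WT had a median of -1.10 with none at an unadjusted p under 0.05. None of the brown adipocyte, cardiac or neuron markers was at 0 in all aortae, and none was called for HFD in WT. For KO against WT on SFD the median was -1.94 for the 4 cardiac, -0.79 for the 8 brown adipocyte and -1.30 for the 4 neuron markers, all below 0. It was -1.08 for the Schwann cell markers, 9 of 10 below 0. In the interaction the medians were 2.34, 0.42, 0.04 and 0.10, in the same order. No marker of these 4 groups was called in either comparison. The part of these tissues in the Erbb3 difference was not tested beyond the values given.

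**Figure D3:**
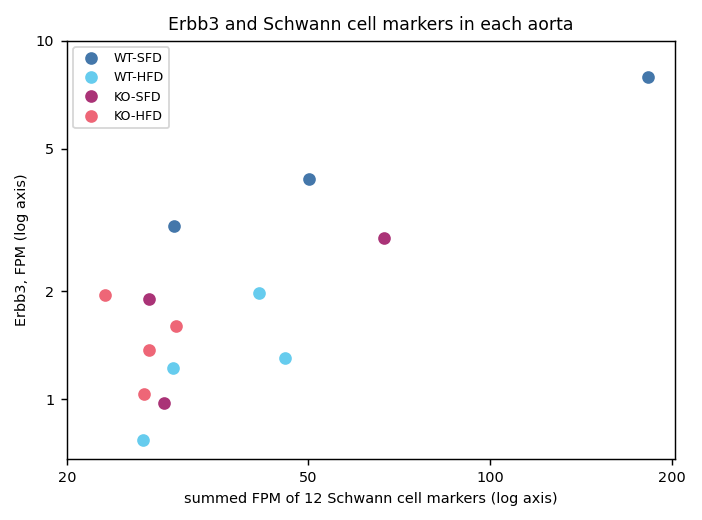
Erbb3 in FPM against the summed FPM of 12 Schwann cell markers in 14 aortae (log axes), 1 point per mouse, by group. Mouse WT-SFD-1309 is highest on both axes, with 7.92 FPM of Erbb3 and 182 FPM of markers, and mouse WT-SFD-1445 has 3.03 FPM of Erbb3 at 30.0 FPM of markers, a marker sum within the range on HFD.

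Nrg1 was close to the limit of detection in the aorta. It was between 0.09 and 1.00 FPM in 11 aortae and had 0 counts in the mice WT-SFD-1310, WT-HFD-1447 and KO-HFD-1454. These zeros allow levels of up to 0.308, 0.313 and 0.367 FPM (3 counts, counting error only). No comparison of Nrg1 was made in the aorta. Errfi1 had 27.4, 32.8 and 29.0 FPM in WT-SFD, 53.7, 39.7, 39.2 and 30.6 FPM in WT-HFD, 33.4, 28.4 and 31.3 FPM in KO-SFD and 31.2, 65.4, 45.8 and 25.0 FPM in KO-HFD aortae. The diets overlapped in both genotypes, and the mice WT-HFD-1442 and KO-HFD-1503 had the highest values. The mean HFD difference was 0.45 (SE 0.183, edgeR adjusted p = 0.203) and the mean KO difference 0.05 (edgeR adjusted p = 0.964). In the mean of both genotypes 0 of the 5 genes were called for HFD in the aorta, against 3.95% of all genes tested, and 3 had an unadjusted p under 0.05, as had 18.8% of all genes. These 3 were Erbb3 (-1.13, SE 0.301, edgeR adjusted p = 0.0511), Egfr (0.27, SE 0.109, edgeR adjusted p = 0.203) and Errfi1, and DESeq2 called 1, Erbb3, beside 6.81% of all genes.

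The surrounding pathway was represented by 73 other genes in 4 lists, namely 10 ligands, 8 genes of ligand release, 35 adaptors and kinases and 20 inhibitors and feedback genes, of which 60 were tested in each tissue. In the order of the lists 1, 2, 4 and 2 genes had 0 counts in all aortae. Genes in the regions without counts could not be measured. In the aorta 0 of the 60 were called between the genotypes in the mean of both diets by edgeR and 0 by DESeq2, with 4 at an unadjusted p under 0.05 (7.17% of all genes). The median of the 60 was -0.01, as it was for all genes tested. The ligand genes nearest to a difference were Btc (betacellulin; 0.44, edgeR adjusted p = 0.715) and Hbegf (HB-EGF; 0.30, edgeR adjusted p = 0.773). Among the inhibitors these were the phosphatase gene Ptpn1 (0.19, edgeR adjusted p = 0.690) and Lrig3 (0.24, edgeR adjusted p = 0.691), a relative of the receptor inhibitor LRIG1.

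On HFD 2 of the 60 genes, or 3.33%, were lower in the aorta in the mean of both genotypes, a share close to the 3.95% of all genes. Adam12, a metalloprotease that can shed HB-EGF, was at 19.9 ± 16.7 (SD, n = 3) and 2.01 ± 0.21 FPM (SD, n = 4) in WT-SFD and WT-HFD and at 7.94 ± 8.53 (SD, n = 3) and 1.71 to 2.82 FPM (n = 4) in KO, with a mean difference of -2.55 (SE 0.552, edgeR adjusted p = 0.0229). Grb7, an adaptor that binds ERBB2, was at 1.53 ± 0.98 (SD, n = 3) and 0.43 ± 0.14 FPM (SD, n = 4) in WT and at 0.95 ± 0.81 (SD, n = 3) and 0.11 ± 0.15 FPM (SD, n = 4) in KO, a difference of -2.26 (SE 0.542, edgeR adjusted p = 0.0255). Both had SFD means with a large SD, and 7 of the 8 adipocyte markers were lower on HFD too, with a median of -3.51. Without the 4 adipocyte-rich aortae Adam12 was at 0.46 (edgeR adjusted p = 0.901) and Grb7 did not pass the filter on low counts, in a fit that called 0 of 15861 genes. With the adipocyte score as a covariate Adam12 was at 0.22 (edgeR adjusted p = 0.956) and Grb7 at -0.89 (edgeR adjusted p = 0.902), in a fit that called 1 of 14796. Leaving out a single library also ended the call of Adam12 for 10 of the 14 aortae, most of all KO-SFD-1319 (-1.85, edgeR adjusted p = 0.134), and that of Grb7 for 9, again most of all KO-SFD-1319 (-1.83, edgeR adjusted p = 0.163). Of the ligand and inhibitor genes, which had no call, Hbegf (0.56, edgeR adjusted p = 0.114) and Egf (-0.71, edgeR adjusted p = 0.370), and Ptprj (0.31, edgeR adjusted p = 0.204) and Lrig3 (0.25, edgeR adjusted p = 0.238), had the smallest p.

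In the kidney the feedback inhibitor Errfi1 rose on HFD, and more of its RNA was present in every KO-HFD than in every KO-SFD kidney. It had 341, 235, 242 and 407 FPM in WT-SFD and 471, 546, 530 and 392 FPM in WT-HFD kidneys. In KO-SFD kidneys it had 258, 183, 228 and 333 FPM, and in KO-HFD kidneys 560, 544, 775 and 592 FPM. Such a separation upwards was seen for 5.02% of all genes tested. In WT the diets overlapped, since mouse WT-SFD-1695 lay above mouse WT-HFD-1642. The HFD mean was 1.58 times the SFD mean in WT and 2.47 times in KO.

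The HFD difference of Errfi1 was 0.98 in the mean of both genotypes (SE 0.141, edgeR adjusted p = 3.6e-04), 1.30 in KO (SE 0.201, edgeR adjusted p = 0.00139) and 0.66 in WT (SE 0.199, edgeR adjusted p = 0.197). The larger value in KO was not called different from that in WT, with an interaction of 0.64 (SE 0.280, edgeR adjusted p = 0.9996). In the interaction 0 of the 6 genes were called by edgeR and 0 by DESeq2. Among them 1 (Errfi1) had an unadjusted p under 0.05, as had 3.35% of all genes. Across all genes tested, 4.62% were called for HFD in the mean of both genotypes, 3.01% higher and 1.62% lower, and 2.39% were called in KO, 1.57% higher and 0.825% lower. Of the 6 genes 2 were called in each of these comparisons, Errfi1 higher and Nrg1 lower. For HFD in WT 0 of the 6 were called by edgeR and 0 by DESeq2, with 2 at an unadjusted p under 0.05, against 0.964% of all genes called by edgeR, 1.75% by DESeq2 and 8.05% at an unadjusted p under 0.05. The call of Errfi1 in the mean of both genotypes held at 0.05 under every alternative run, with values of 0.64 to 1.07 and adjusted p values up to 0.0320. Of 8 proximal tubule markers 2 were called higher on HFD in the mean of both genotypes (Slc5a12 and Slc5a2), but 4 were above and 4 below 0, with a median of 0.01. In WT 6 of the 8 were below 0 (median -0.08) and in KO 6 were above it (median 0.19). They summed to 11277 to 17411 FPM, most of all Slc34a1. With their score as a covariate the value in KO was 0.83 (edgeR adjusted p = 0.0598).

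The RefSeq annotation (GRCm38.p6) gives Errfi1 a pair of start sites, and the 250 bases before each are shown because Errfi1 and Nrg1 carried the calls in the kidney and of these Errfi1 has an entry among the RefSeq promoters used here. The counts do not tell which start was used, and no exon overlaps either window. Capitals mark TGACGTCA, the cAMP response element, which reads the same on both strands, and TATAAA, the TATA box.
Errfi1 upstream start, chr4:150853546-150853795, plus strand: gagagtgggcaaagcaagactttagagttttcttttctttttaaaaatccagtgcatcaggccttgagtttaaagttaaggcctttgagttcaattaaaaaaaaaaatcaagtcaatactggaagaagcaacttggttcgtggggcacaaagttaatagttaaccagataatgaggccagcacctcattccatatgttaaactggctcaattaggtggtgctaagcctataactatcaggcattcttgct
Errfi1 downstream start, chr4:150854820-150855069, plus strand: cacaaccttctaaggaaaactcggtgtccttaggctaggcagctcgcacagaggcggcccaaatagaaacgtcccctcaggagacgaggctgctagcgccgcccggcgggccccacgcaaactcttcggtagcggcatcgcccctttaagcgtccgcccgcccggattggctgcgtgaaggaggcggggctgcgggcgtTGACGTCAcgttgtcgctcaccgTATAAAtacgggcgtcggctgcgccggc

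In the downstream window TGACGTCA lies 51 to 44 bases and TATAAA 28 to 23 bases before the start. Of 32536 mouse windows of this length, 1.56% hold TGACGTCA and 12.3% hold TATAAA on either strand. TGANTCA, the AP-1 motif, is in 6.73% of windows and the glucocorticoid response element in 0.390%, and neither is in an Errfi1 window. The motifs do not overlap each other there, and the cAMP and TATA motifs were picked after the sequence had been seen. Of the other genes Egfr, Erbb2 and Erbb4 have a window in this set, and none of the 4 motifs is in them. A match describes letters in the window and does not show a site in use.

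Nrg1 fell on HFD in the kidney. It had 7.26, 8.92, 6.92 and 7.62 FPM in WT-SFD, 2.91, 2.76, 7.05 and 3.68 FPM in WT-HFD, 7.18, 7.92, 8.08 and 4.26 FPM in KO-SFD and 2.33, 2.81, 3.86 and 2.66 FPM in KO-HFD kidneys. The KO groups did not overlap, as for 3.85% of all genes in this direction, and in WT 1 mouse on HFD (WT-HFD-1641) lay within the SFD range. The HFD mean was 53.4% of the SFD mean in WT and 42.5% in KO. The difference was -1.08 in the mean of both genotypes (SE 0.190, edgeR adjusted p = 0.00229), -1.25 in KO (SE 0.277, edgeR adjusted p = 0.0222) and -0.92 in WT (SE 0.259, edgeR adjusted p = 0.152). It did not differ between the genotypes beyond its error, with an interaction of -0.33 (SE 0.383, edgeR adjusted p = 1.00). Without mouse WT-HFD-1641 the value in WT was -1.29 and was called (edgeR adjusted p = 0.0077). With all kidneys 0.964% of all genes were called for HFD in WT, and the share without this mouse is not given here. The call in KO was lost without any 1 of the mice KO-SFD-1318, KO-SFD-1319, KO-HFD-1437, KO-HFD-1504 or KO-HFD-1558 (edgeR adjusted p = 0.0553 to 0.0772) and with the proximal tubule score as a covariate (-1.46, edgeR adjusted p = 0.0700), while that of the mean held at 0.05 under every alternative run (-1.27 to -1.01, adjusted p values up to 0.0202).

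**Figure D4:**
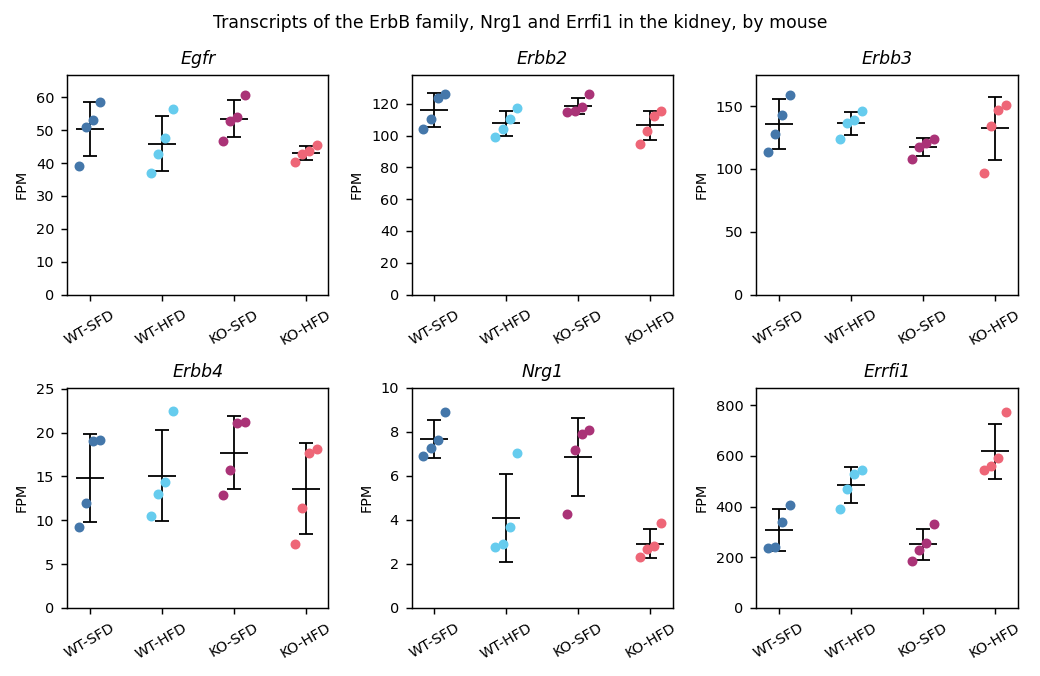
FPM of the 6 genes in 16 kidneys by group, 1 point per mouse, with a long line at the group mean and error bars of 1 SD. Errfi1 is higher and Nrg1 lower on HFD, without overlap in KO, while the receptor genes overlap between most groups.

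Egfr did not differ between the genotypes in the kidney beyond the spread. The WT-SFD kidneys had 58.4, 39.1, 50.9 and 53.0 FPM and the KO-SFD kidneys 52.7, 46.7, 60.8 and 54.0 FPM. The WT-HFD kidneys had 47.5, 36.9, 56.6 and 42.7 FPM and the KO-HFD kidneys 42.9, 45.5, 40.5 and 43.5 FPM. The mean difference was -0.00 (SE 0.0935, edgeR adjusted p = 0.998), and the exact permutation test within diets gave a two-sided p of 0.912 (4468 of 4900 arrangements) for a difference of 0.01. In the kidney smooth muscle markers summed to 206 to 301 FPM, with Mylk the most abundant. By genotype 0 of the 6 genes were called on SFD, on HFD or in their mean by edgeR, 0 by DESeq2 and 0 at an unadjusted p under 0.05. Of all genes edgeR called 0.0133% on SFD, 0% on HFD and 0.0133% in the mean, DESeq2 called 0.173%, 0.00665% and 0.12%, and 8.69%, 1.75% and 5.93% had an unadjusted p under 0.05. In KO Egfr was at 53.6 ± 5.77 FPM on SFD and 43.1 ± 2.08 FPM on HFD (SD, n = 4 each), without overlap, as for 3.85% of all genes. The difference of -0.31 (SE 0.133, edgeR adjusted p = 0.254) was not called.

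The other receptors were not called on HFD in the kidney. Erbb2 ran from 94.9 to 126 FPM over all kidneys, with an HFD difference of -0.13 (SE 0.0623, edgeR adjusted p = 0.276). Erbb3 ran from 96.5 to 159 FPM, with a difference of 0.09 (SE 0.0912, edgeR adjusted p = 0.649). Mouse KO-HFD-1504 had the lowest value of both genes. Erbb4 ran from 7.28 to 22.5 FPM, with a difference of -0.18 (SE 0.211, edgeR adjusted p = 0.699) in the mean of both genotypes and of -0.37 (SE 0.299, edgeR adjusted p = 0.573) in KO. Its coefficient of variation within groups was 23.3% to 38.2%, and the ranges of all groups overlapped. In the aorta the most variable receptor was Erbb3, with a coefficient of variation of 26.1% to 51.2% within groups.

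**Figure D5:**
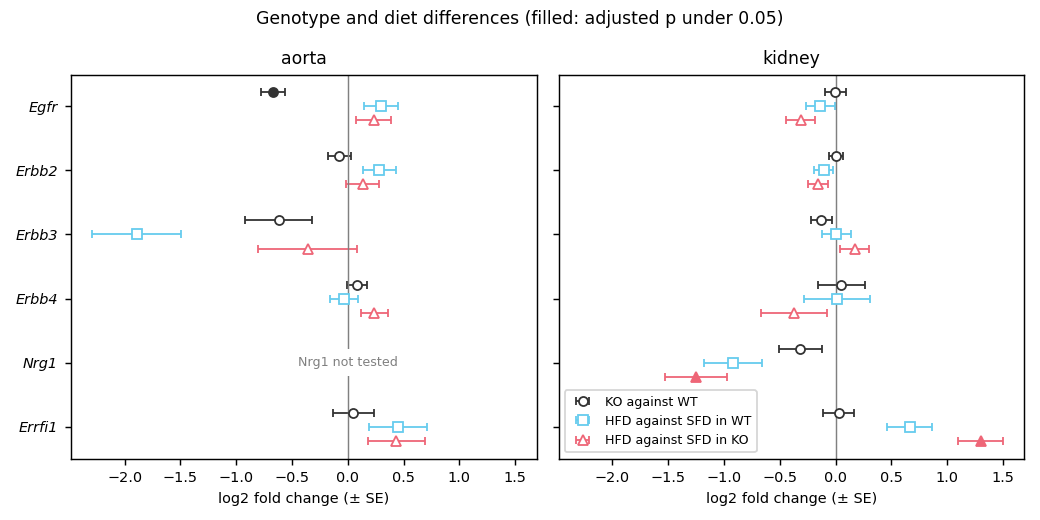
Log2 fold changes of the tested genes in aorta and kidney for KO against WT (mean of both diets) and for HFD against SFD within each genotype, with error bars of 1 SE and filled markers for an adjusted p under 0.05. Filled markers are Egfr in the aorta for the genotype and Errfi1 and Nrg1 in the kidney for HFD in KO.

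Of the 60 pathway genes tested in the kidney, 0 were called by genotype in the mean of both diets by edgeR and 0 by DESeq2, with 2 at an unadjusted p under 0.05 (5.93% of all genes). For HFD in the mean of both genotypes 3 were higher and 1 lower, or 6.67% of 60 beside 4.62% of all genes, and DESeq2 called 9 beside 7.33% of all genes. Dusp6, a phosphatase that switches off ERK and is itself induced by ERK signalling, rose from 42.3 ± 7.35 to 61.1 ± 7.91 FPM in WT and from 31.4 ± 5.82 to 62.4 ± 7.09 FPM in KO (SD, n = 4 each), a mean difference of 0.76 (SE 0.106, edgeR adjusted p = 2.7e-04). Spry4, a Sprouty inhibitor of the same cascade, rose from 6.67 ± 0.89 to 10.1 ± 1.31 FPM in WT and from 6.77 ± 1.17 to 9.80 ± 1.20 FPM in KO (SD, n = 4 each), or 0.56 (SE 0.106, edgeR adjusted p = 0.0045). Rhbdf2, which encodes a partner of the ligand sheddase ADAM17, rose by 0.45 on the log2 scale (SE 0.110, edgeR adjusted p = 0.0248), from a mean of 17.4 to 19.9 FPM in WT and from 15.3 to 25.1 FPM in KO. Cblc, a ubiquitin ligase of the CBL family that marks activated receptors for degradation, fell by 0.51 on the log2 scale (SE 0.110, edgeR adjusted p = 0.0119), from 49.1 to 36.0 FPM in WT and from 54.2 to 36.5 FPM in KO.

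In KO alone Dusp6 (0.99, SE 0.151, edgeR adjusted p = 0.0013) and Rhbdf2 (0.71, SE 0.156, edgeR adjusted p = 0.0217) were called by edgeR, 2 of 60 beside 2.39% of all genes. DESeq2 called 6 of 60 in KO, beside 4.62% of all genes, and 12 had an unadjusted p under 0.05, beside 16.1%. In WT alone 0 of 60 were called by edgeR (0.964% of all genes), 1 by DESeq2 (1.75%) and 5 had an unadjusted p under 0.05 (8.05%). With the proximal tubule score as a covariate, where the calls among all genes went from 695 to 357 of 15034, 1 of the 4 calls of the mean was left, and Spry4 had 0.41 (edgeR adjusted p = 0.155), Rhbdf2 0.29 (edgeR adjusted p = 0.406) and Cblc -0.38 (edgeR adjusted p = 0.259). In KO, where all calls went from 360 to 174 with this covariate, neither gene was called (edgeR adjusted p = 0.0569 for Dusp6 and 0.352 for Rhbdf2), and Rhbdf2 was not called without mouse KO-SFD-1303, KO-SFD-1318 or KO-HFD-1520 (edgeR adjusted p up to 0.0834) or in a fit of only the KO kidneys (edgeR adjusted p = 0.104). Rhbdf2 also missed in the mean without mouse KO-SFD-1318, WT-HFD-1535 or WT-SFD-1694 (edgeR adjusted p up to 0.0613).

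Markers of other kidney cells differed with the diet too, in a comparison in which 18.2% of all genes had an unadjusted p under 0.05. Of 5 thick ascending limb markers, with Umod the most abundant, 4 were tested and all lay below 0 on HFD in the mean of both genotypes, with 1 called (Ppp1r1a), 3 at an unadjusted p under 0.05 and a median of -0.45. They summed to 3170 to 7820 FPM, and Kcnj1, on chromosome 9, was listed at 0. Of 8 collecting duct markers, with Aqp2 the most abundant and sums of 755 to 1973 FPM, 7 were tested and all lay below 0, with 0 called, 5 at an unadjusted p under 0.05 and a median of -0.26. Hsd11b2 was listed at 0 but lies in a region without counts for any gene, so that its level is not known. Of 5 distal convoluted tubule markers, with sums of 761 to 1595 FPM and Slc12a3 the most abundant, 2 were called higher (Slc12a3 and Pvalb), 3 lay above and 2 below 0, and none was at 0 counts. All 6 podocyte markers lay above 0, with 0 called, 4 at an unadjusted p under 0.05 and a median of 0.23, and they summed to 183 to 339 FPM with Podxl the most abundant (98.5 to 164 FPM). Of 8 adipocyte markers 7 lay below 0, with a median of -0.76, 2 called lower (Lpl, the most abundant, and Pnpla2) and 1 called higher (Lep), and their sum was 866 to 1643 FPM on SFD and 449 to 817 FPM on HFD. In KO, where Errfi1 and Nrg1 were called, 5 of the 6 podocyte markers had an unadjusted p under 0.05 with a median of 0.46, while in WT 3 lay above and 3 below 0 with a median of 0.055 and none at that p. The thick ascending limb markers had a median of -0.70 in KO, with all 4 at an unadjusted p under 0.05 and 1 called, and of -0.18 in WT, with none at that p. The adipocyte markers had a median of -0.99 in KO and -0.56 in WT, the distal convoluted tubule markers 0.20 and -0.18 and the collecting duct markers -0.22 and -0.38. In the interaction none of these markers was called (0% of all genes), and 1 podocyte, 1 thick ascending limb, 1 distal convoluted tubule and 1 collecting duct marker had an unadjusted p under 0.05, as had 3.35% of all genes. Apart from the proximal tubule score, the part of these cells in the differences of Errfi1, Nrg1 and the pathway genes was not tested.

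The ligand genes had no call on HFD, with Tgfa (-0.35, edgeR adjusted p = 0.196) and Egf (-0.29, edgeR adjusted p = 0.226) nearest to one in the kidney, and by genotype these were Nrg2 (0.56, edgeR adjusted p = 0.834) and Hbegf (0.06, edgeR adjusted p = 0.925). Nor had the adaptors and kinases by edgeR, with Gab1 (0.22, edgeR adjusted p = 0.142) for diet and Mapk3 (0.16, edgeR adjusted p = 0.834) and Gab2 (-0.17, edgeR adjusted p = 0.834) for genotype. DESeq2 called 1 of these 31 tested genes for HFD in the mean of both genotypes, beside 7.33% of all genes. In edgeR 12 of the 31 lay above and 19 below 0 there. In each direction 1 had an unadjusted p under 0.05, beside 18.2% of all genes.

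In 3 mice both tissues were sequenced. Mouse WT-SFD-1309 had 46.7 FPM of Egfr in the aorta and 58.4 FPM in the kidney, and mouse KO-SFD-1319 had 26.8 and 60.8 FPM. Mouse KO-HFD-1504 had 39.7 FPM of Egfr in the aorta and 45.5 FPM in the kidney. In mouse KO-SFD-1319 Egfr was thus the lowest of all 14 aortae but the highest of all 16 kidneys. Mouse WT-SFD-1309, which had the most Erbb3 of all aortae (7.92 FPM), also had the most of all kidneys (159 FPM), and mouse KO-HFD-1504 had the least of all kidneys (96.5 FPM) with 1.60 FPM in the aorta. These values are a description of 3 mice, and no correlation was computed.

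The genes whose levels ran most like those of each gene were ranked by Pearson's r of log2 values, across 14046 genes and 14 libraries in the aorta and 13421 genes and 16 libraries in the kidney. These correlations share libraries and groups and have no p. In the aorta Egfr ran most like Pisd-ps2 (r = 0.883), 0610037L13Rik (0.883) and Ptges3 (0.864). Erbb2 ran most like Fscn2 (0.896), Ino80b (0.858) and Slc19a2 (0.856), and Erbb3 like Vamp3 (0.953), Zadh2 (0.914) and Kif1b (0.896). Erbb4 ran most like B4galt6 (0.804), Fcrls (0.796) and Cdk20 (0.779), and Errfi1 like Gja5 (0.800), Rcn1 (0.799) and Tmem258 (0.798). None of these lists held another of the 6 genes. Ranked by Spearman's rho, with ties at the third place included, the nearest genes shared all 3 with this list for Erbb4, 2 for Egfr (Pisd-ps2 and Ptges3), 2 for Erbb3 (Vamp3 and Zadh2) and 0 for Erbb2 and Errfi1.

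In the kidney Erbb4 ran most like Srgap3 (r = 0.961), Plekhg1 (0.952) and Sim1 (0.945). Errfi1 ran most like Col27a1 (0.947), G6pc (0.940), the glucose-6-phosphatase of gluconeogenesis, and Dab2 (0.928), an endocytic adaptor. Nrg1 ran most like Habp4 (0.877), Mast2 (0.859) and Pacsin2 (0.844), and Egfr like Lpgat1 (0.890), Dcun1d4 (0.869) and Tbc1d16 (0.850). Erbb3 ran most like Serinc1 (0.833), Zfyve1 (0.832) and Tmem56 (0.815), and Erbb2 like Fbxo21 (0.798), Tdrd12 (0.797) and Clstn1 (0.776). By rho the highest value in the kidney was that of Errfi1 with AI464131 (0.95), and Erbb4 had 0.944 with Sema6d. The nearest genes by rho shared 2 with the list above for Egfr (Lpgat1 and Dcun1d4), 1 each for Erbb3 (Serinc1), Erbb4 (Srgap3) and Errfi1 (Col27a1) and 0 for Erbb2 and Nrg1. By r no gene stood in the lists of the same gene in both tissues.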

How the data were processed

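RNA was sequenced from 14 aortae and 16 kidneys. The authors used cutadapt for trimming, Bowtie2 and Tophat2 for alignment to GRCm38/mm10 and featureCounts for counting, and deposited unscaled counts of each mouse. Whether strand was used and how multimapping reads were counted are not given in the sources used here. A university core unit sequenced the aortae and a company the kidneys, and the tissues were fitted apart.

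Genotype and diet of each sample came from its labels. Counts were filtered with filterByExpr, scaled by TMM factors and tested with edgeR 4.0.16 (glmQLFit and glmQLFTest, 1 coefficient per group) in R 4.3.3, with Benjamini-Hochberg adjustment over all genes tested. Egfr was also tested by exact permutation of genotypes within diets. Tables and figures were made in Python 3.11.15 with pandas 2.3.3 and matplotlib 3.10.9. The scripts were tested on simulated data with known changes. Alternatives were DESeq2 1.42.0, the legacy quasi-likelihood test, RLE factors, no TMM factors, no filter, only the groups compared, an adjusted p under 0.001 (the limit of the study), marker scores as covariates, the longest transcript as gene length, Spearman's rho for likeness and leaving out each library. Leaving out the 4 aortae with over 500 FPM of adipocyte markers was added after seeing the data.

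The 6 genes and all gene lists were chosen with earlier results of these data known. Besides the 6 genes, the text names each pathway gene that was called and, in lists without a call in any comparison of the tissue, the 2 with the smallest p for genotype and for diet, together with the 3 genes of highest r (log2 CPM, prior count 2, mean of at least 1 CPM). The result of 1 gene that this rule names is not reported here. Promoter sequences came from RefSeq, where 4 of the 6 genes had an entry. Intervals and floors cover counting error only.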

Additional observations from a re-analysis of the deposited data

How the results depend on the processing

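The number of the 6 genes called moved with the processing in these comparisons. In the aorta, KO against WT on HFD went from 0 to 1 with DESeq2, with only the groups compared, with the adipocyte covariate and without the 4 adipocyte-rich aortae, while the calls among all genes went from 12 to 40, 27, 29 and 29. The 1 call in the mean of both diets went to 0 without TMM factors (29 to 33 among all genes) and at an adjusted p under 0.001 (to 12). HFD in WT went from 0 to 1 with DESeq2, without TMM factors and without the filter (0 to 666, 312 and 347 among all genes), and HFD in the mean of both genotypes from 0 to 1 with DESeq2 and without TMM factors (584 to 1007 and 633). In the kidney, HFD in KO went from 2 to 0 with the proximal tubule covariate (360 to 174 among all genes) and at 0.001 (to 50), and the mean of both genotypes from 2 to 1 at 0.001 (695 to 153). Pathway genes were counted here if called for HFD in WT, in KO or in the mean of both genotypes, or by genotype in the mean of both diets. In the aorta they went from 2 to 0 with the adipocyte or Schwann cell covariate, and in the kidney from 4 to 9 with DESeq2 and to 1 with the proximal tubule covariate. For HFD in the mean of both genotypes alone, the calls among all genes went from 584 to 1 and 0 in the aorta and from 695 to 1101 and 357 in the kidney.

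Egfr in the aorta on HFD passed with DESeq2 (-0.70, DESeq2 adjusted p = 0.00482), only the groups compared (-0.70, edgeR adjusted p = 0.0322), the adipocyte covariate (-0.73, edgeR adjusted p = 0.0357) and without the 4 aortae (-0.70, edgeR adjusted p = 0.0336). Its mean over diets missed without TMM factors (-0.49, edgeR adjusted p = 0.201).

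Signs turned, always for values without a call, for Erbb2 in the aorta by genotype without TMM factors (0.11), Erbb3 in KO aortae on HFD with the adipocyte covariate (0.048), Egfr in the kidney by genotype with DESeq2 (1.4e-04), RLE factors (2.4e-04) and the proximal tubule covariate (0.053), and Erbb3 (-0.16) and Erbb4 (0.041) in the kidney on HFD with that covariate. The called value of Adam12 turned to 0.22 with the adipocyte covariate and to 0.46 without the 4 aortae. Without TMM factors the median of all genes was 0.27 for KO against WT on SFD, 0.17 in the mean of both diets and 0.10 for HFD in WT.

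With each library left out in turn, the calls among the 6 genes ranged from 0 to 1 in the aorta by genotype (mean of both diets), for HFD in WT and for HFD in the mean, from 0 to 1 in the kidney for HFD in WT and from 1 to 2 for HFD in KO. With all libraries 0.196%, 0% and 3.95% of all genes were called in these aorta comparisons, and 0.964% and 2.39% in these kidney comparisons. The calls among all genes moved between these fits too, as given with Erbb3 for HFD in WT aortae. The pathway genes called in any of the comparisons counted above were 0 to 7 in the aorta and 4 to 6 in the kidney. In a single comparison 0 to 1929 of all genes were called in the aorta and 506 to 733 in the kidney, so that these counts are not of the same kind. The 7 came without mouse WT-SFD-1445, the fit with 1929 of 15329 genes called. Egfr in the aorta (mean of both diets) ranged from -0.73 to -0.60, and missed only without mouse KO-SFD-1507. Values without a call that crossed 0 were Erbb2 in the aorta by genotype (-0.14 to 0.0079), Erbb3 in the aorta by genotype on HFD (-0.021 to 0.40), Egfr in the kidney by genotype on SFD (-0.0095 to 0.16), on HFD (-0.18 to 0.025), in the mean (-0.050 to 0.056) and in the permutation test (-0.044 to 0.064), and the Nrg1 interaction in the kidney (-0.50 to 0.042). The cause of these shifts was not tested.

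No paired analysis was possible because the groups compared hold different mice and the labels give them no shared replicate numbers. Nrg1, with counts of 0 to 11, did not pass the filter in the aorta and was not compared there.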
